A study of Mus musculus with 18 samples.

Results

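A set of 34 genes of endoplasmic reticulum stress and protein folding, chosen by gene symbol, was followed through polyadenylated RNA of mouse colonic epithelium. All 34 were found among the 54532 genes of the count table, and all 34 passed the filter on low counts that left 17692 genes for testing. They comprised 7 stress sensors and transcription factors, 15 chaperones and folding enzymes, 7 genes of endoplasmic reticulum-associated degradation, 2 subunits of the Sec61 translocon and 3 further targets of the transcription factor ATF4. The epithelium came from BL6 wild-type mice, from mice lacking Rab11FIP1 (FIP1 knockout) and from mice lacking Rab11FIP2 (FIP2 knockout), each sampled in distal and proximal colon, with 3 libraries in each of the 6 groups and 18 in all. Rab11FIP1 and Rab11FIP2 are adaptor proteins that link the small GTPase Rab11 to the transport of recycling vesicles. The labels give no treatment, and the epithelium was freed mechanically in cold buffer with 30 mM EDTA. The labels used here give neither the age of the mice nor how the knockouts were made, and leave it unstated if each library is a mouse of its own; the p-values therefore cover only the spread between these libraries. The series title links loss of Rab11FIP1 to spontaneous inflammation of the colon.

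Proteins that enter the endoplasmic reticulum are folded there by chaperones and by enzymes that form disulfide bonds. When unfolded protein accumulates, 3 sensors in the membrane respond: ATF6, which is cleaved and enters the nucleus; IRE1 (Ern1), which splices the Xbp1 message; and PERK (Eif2ak3), which slows translation and favours production of ATF4. ATF6 and XBP1 are known to drive chaperone and degradation genes, and ATF4 to drive Ddit3, Trib3, Chac1, Atf3 and amino acid enzymes such as Asns, so the 2 sets are described separately. Secretory cells of the gut, among them goblet cells and plasma cells, are rich in this machinery.

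The promoter sequences of the members are described first. Of the 34 members, 29 had a promoter in the RefSeq table (build GRCm38.p6), which runs from 250 bases before the start site to 50 after it. Sec61a1, Derl1, Manf, Atf6 and Hyou1 had none. The endoplasmic reticulum stress element, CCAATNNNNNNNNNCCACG on either strand, is the classical site of ATF6 with NF-Y. It was found in 39 of 32851 promoters of the table (0.119%) and in 9 of the 29 members (31%). Of 13 folding genes with a promoter, 7 held it: Hspa5, Hsp90b1 (at 2 places), Creld2, Dnajc3, Pdia6, Calr and Canx. Of 6 degradation genes, Syvn1 and Derl3 held it. None of the 6 genes of the ATF4 set (Atf4, Ddit3, Atf3, Trib3, Chac1 and Asns) held it. The related element II, ATTGG and CCACG with 1 base between them on either strand, was found in 12 promoters of the table (0.0365%), including those of Herpud1 and Dnajb11. The core of the XBP1 site, TGACGTGG, occurred in 222 promoters (0.676%) and in no member. The ATF4 element, TGATGNAA on either strand, occurred in 1304 promoters (3.97%) and in 5 members: Atf3, Trib3, Chac1, Asns and Herpud1. No hits of different motifs overlapped in the members. A match describes these letters only.

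Promoter stretches of 9 members are printed here because they carry the stress element, element II or the ATF4 element. Hspa5, Hsp90b1, Creld2, Calr and Canx are shown for folding genes with the stress element that were higher in a FIP2 knockout. Syvn1 is shown for a degradation gene that holds the same element and was not. Derl3, the other degradation gene with that element, is not printed and was called higher in proximal FIP2 knockout. Herpud1 is shown for a promoter with element II and the ATF4 element, and Chac1 and Asns for the ATF4 element. Capitals mark the fixed letters of the element, read 5′ to 3′ on the strand of the gene, so an element on the other strand appears as its reverse complement. They lie at chr2:34772020-34772048 (Hspa5, plus strand), chr10:86705521-86705668 (Hsp90b1, minus), chr15:88819508-88819550 (Creld2, plus), chr8:84847063-84847105 (Calr, minus), chr11:50325788-50325830 (Canx, minus), chr19:6046520-6046562 (Syvn1, plus), chr8:94386305-94386399 (Herpud1, plus), chr2:119351037-119351068 (Chac1, plus) and chr6:7693214-7693243 (Asns, minus).
Hspa5: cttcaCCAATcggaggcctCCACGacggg
Hsp90b1: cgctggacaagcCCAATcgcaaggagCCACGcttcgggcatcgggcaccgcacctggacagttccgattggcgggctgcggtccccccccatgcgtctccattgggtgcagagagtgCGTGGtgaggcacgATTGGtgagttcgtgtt
Creld2: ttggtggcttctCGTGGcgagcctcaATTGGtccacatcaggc
Calr: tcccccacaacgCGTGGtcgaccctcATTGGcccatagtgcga
Canx: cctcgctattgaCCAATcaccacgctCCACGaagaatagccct
Syvn1: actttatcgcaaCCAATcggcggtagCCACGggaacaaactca
Herpud1: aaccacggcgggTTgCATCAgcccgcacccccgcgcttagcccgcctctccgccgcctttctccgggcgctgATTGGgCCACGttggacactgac
Chac1: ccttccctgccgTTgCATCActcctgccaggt
Asns: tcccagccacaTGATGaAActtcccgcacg

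**Figure D1:**
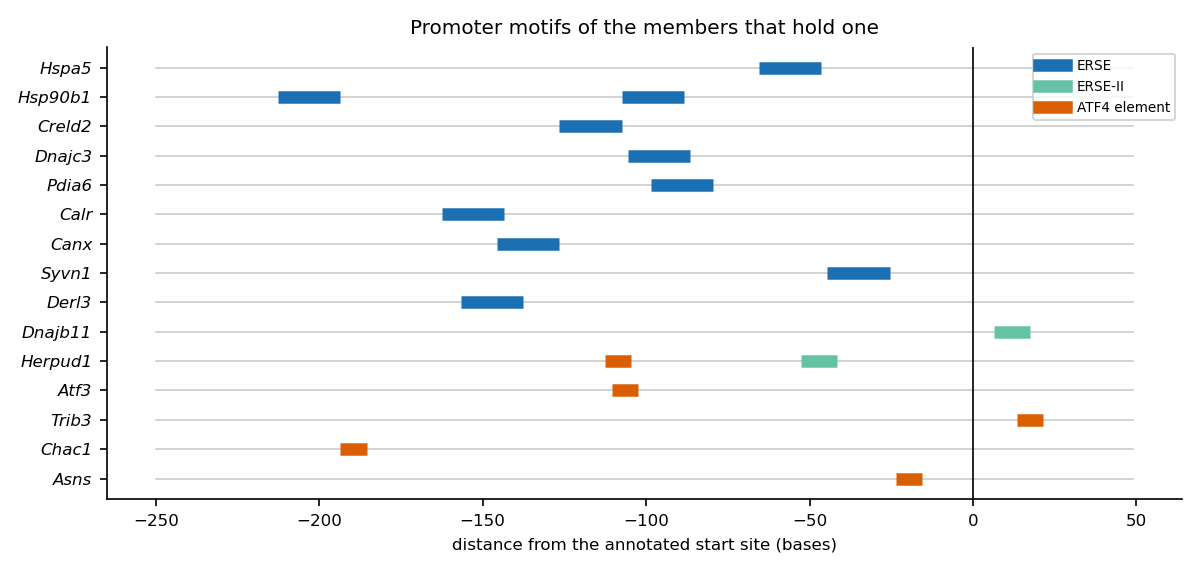
Each row is 1 member whose promoter holds a motif, and the horizontal axis is the distance in bases from the RefSeq start site (0), over the 300 bases searched. Blue bars are the endoplasmic reticulum stress element (ERSE), green bars element II (ERSE-II) and orange bars the ATF4 element; the blue bars lie in folding genes, Syvn1 and Derl3, and the orange bars in Herpud1, Atf3, Trib3, Chac1 and Asns.

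Library totals ran from 11193308 to 22062300 counts, and values are given in CPM, counts scaled to a common library total with TMM factors. The targeted genes were lower in their knockouts: Rab11fip1 was at 46.4 to 50.6 CPM in distal FIP1 knockout libraries against 92.0 to 128 in wild type (proximal, 53.0 to 82.5 against 93.0 to 175), and Rab11fip2 at 2.48 to 4.18 CPM in distal FIP2 knockout libraries against 7.28 to 7.44 (proximal, 3.31 to 4.28 against 4.93 to 8.68). Rab11fip2 was also below wild type in distal FIP1 knockout (5.57 to 6.68 CPM). In proximal FIP1 knockout it was at 3.34 to 6.37 CPM, overlapping both wild type and the FIP2 knockout. Rab11fip1 in the FIP2 knockout overlapped wild type in distal (115 to 150 CPM) and proximal colon (109 to 163 CPM). Summed epithelial markers ran from 11997 to 19580 CPM over the 6 groups, and are given by group beside the folding genes. Mitochondrially encoded genes took 18.1% to 32.3% of counts in wild type and 11.2% to 20.1% in the knockouts. The 12 interferon-responsive markers summed to 243 to 426 CPM in wild type and 649.9 to 1339 in the knockouts. The second wild-type proximal library stood apart, with 113 CPM of summed neuron and glia markers against 24.4 and 30.4 in the other 2, and with the highest folding gene level of its group. The second FIP1 knockout proximal library had the lowest folding gene level of its group. The folding gene counts of the proximal comparisons with wild type are given with and without these libraries. The part of the interferon-responsive signal in the results was not tested. Without the mitochondrially encoded genes, an alternative added after seeing the data, 11 of the 15 folding genes were called higher in distal FIP2 knockout (median log2 change 0.72) and 12 in proximal (0.89). The share of all genes called in that fit is not given here.

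In wild-type distal colon the members spanned a wide range when compared per transcript length, in the deposited FPKM. Pdia3, a disulfide isomerase of glycoprotein folding, was at 549.9 ± 68.5 FPKM (SD, n = 3), and Hspa5, the chaperone BiP, at 521 ± 138. Their ranges overlapped (495 to 627 and 412 to 675). Calr (calreticulin) at 386 ± 41.3, Hsp90b1 (GRP94) at 326 ± 83.6 and P4hb (protein disulfide isomerase) at 314 ± 48.7 FPKM came next, also with overlapping ranges. Among the transcription factors, Xbp1 was at 133 ± 22.9 and Atf4 at 77.6 ± 1.88 FPKM, while the sensors Ern1, Eif2ak3 and Atf6 were at 17.2 ± 1.09, 13.8 ± 2.72 and 12.1 ± 1.95. Derl3 (1.52 ± 0.292), Chac1 (0.478 ± 0.0716) and Trib3 (0.124 ± 0.108) were lowest. Trib3 had 1 to 16 counts per library in the whole series, so its values carry little precision.

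Chaperones and folding enzymes were higher in the FIP2 knockout in both segments. A gene is called higher or lower here at a Benjamini-Hochberg adjusted p under 0.05 over all 17692 genes in edgeR's quasi-likelihood test. In distal colon 11 of the 15 folding genes were called higher and 0 lower in the FIP2 knockout against wild type, with a median log2 change of 0.72 over the 15 and of 0 over all genes tested. In proximal colon 12 were called higher and 0 lower, with a median of 0.88 against -0.02 over all genes. Over all 34 members, 16 were higher and 2 lower in distal colon, where 9.13% of all tested genes were called higher and 9.38% lower. In proximal colon 17 members were higher and 1 lower, against 7.6% and 7.07% of all genes. In bulk RNA, a change in the share of a cell type and a change of RNA per cell cannot be told apart.

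Hspa5, which binds unfolded chains and holds the sensors inactive, was at 898, 731 and 613 CPM in the 3 wild-type distal libraries and at 2079, 1765 and 1762 in the FIP2 knockout. In proximal colon it was at 623, 875 and 536 CPM in wild type and at 1575, 1571 and 1881 in the FIP2 knockout. Every FIP2 knockout library was above every wild-type library of its segment. The log2 changes were 1.32 ± 0.24 (SE, adjusted p = 0.00105) in distal and 1.31 ± 0.24 (adjusted p = 0.00158) in proximal colon, or 2.5-fold and 2.47-fold.

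Hsp90b1, the endoplasmic reticulum form of HSP90, was at 627, 555 and 419.6 CPM in wild-type distal libraries and at 1229, 1138 and 1074 in the FIP2 knockout. Its proximal values were 442, 742 and 429.9 CPM in wild type and 1223, 1011 and 1051 in the FIP2 knockout. The groups did not overlap in either segment, although the second wild-type proximal library was the nearest to the knockout. The changes were 1.1 ± 0.23 (adjusted p = 0.00288) and 1.03 ± 0.23 (adjusted p = 0.00619) on the log2 scale. Manf, a secreted stress-induced factor that binds BiP, was at 109, 94.6 and 75 CPM in wild-type distal colon and at 201, 203 and 154 in the FIP2 knockout. In proximal colon it was at 62.0, 94.6 and 53.0 CPM against 155, 155 and 176. Manf was thus higher without overlap in both segments, by 1.00 ± 0.21 (adjusted p = 0.0031) and 1.22 ± 0.22 (adjusted p = 0.00106).

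Calr, the soluble lectin chaperone, was at 478, 454 and 455 CPM in wild-type distal colon and at 846, 894 and 914 in the FIP2 knockout. The groups did not overlap, and the change was 0.94 ± 0.21 (adjusted p = 0.0047). In proximal colon Calr was at 433, 681 and 422 CPM against 872, 894 and 1059, a change of 0.88 ± 0.21 (adjusted p = 0.00932). That proximal call was lost without the first (adjusted p = 0.0505) or the third (adjusted p = 0.0515) wild-type library. Canx, its membrane-bound relative, was at 364, 348 and 279 CPM in wild-type distal libraries and at 647, 632 and 609 in the FIP2 knockout (0.93 ± 0.17, adjusted p = 0.00077). In proximal colon Canx was at 504, 627 and 459 CPM against 699, 710.5 and 744 and was not called (0.44 ± 0.16, adjusted p = 0.0801). Canx was itself higher in proximal than in distal wild-type colon (0.68 ± 0.16, adjusted p = 0.00676). The proximal Canx change was called in DESeq2 (adjusted p = 0.0293), in limma with either pseudocount, with library totals and without the second wild-type library.

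**Figure D2:**
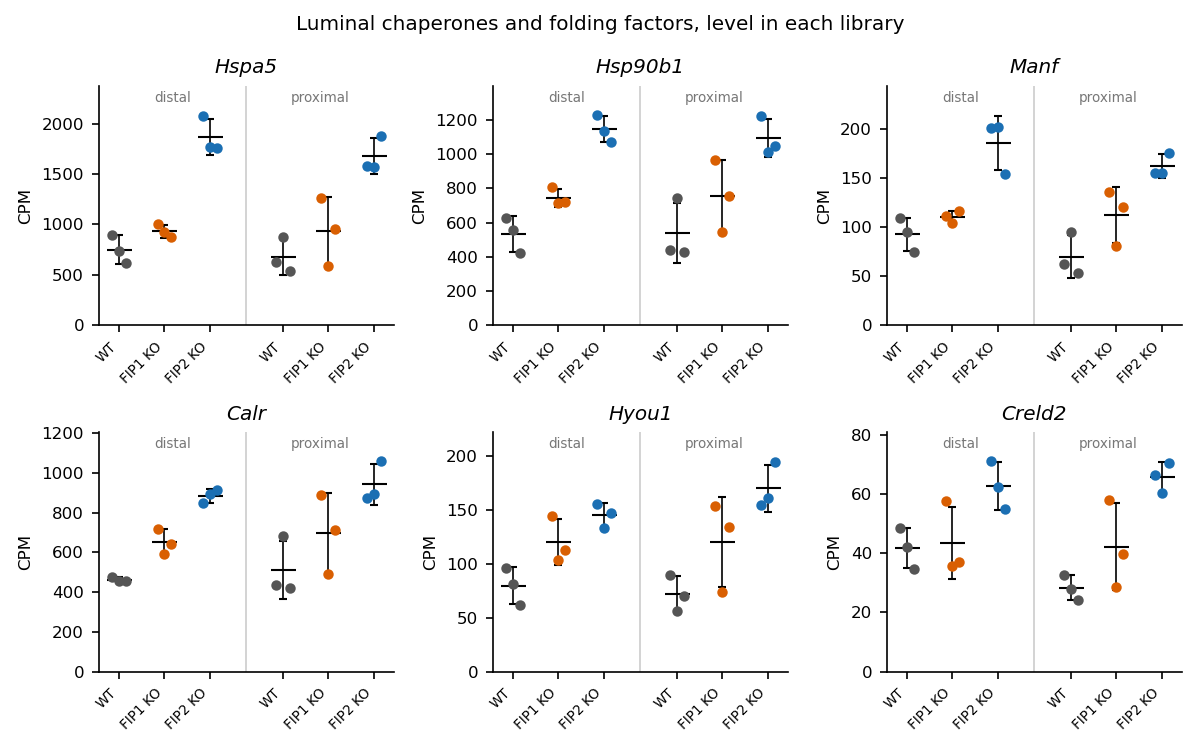
Each panel shows 1 folding gene, with scaled counts (CPM) on the vertical axis and the 6 groups on the horizontal axis; points are the 3 libraries of a group, and the bars are the mean ± SD. FIP2 knockout libraries (blue) lie above wild type (grey) of the same segment in all 6 panels, and FIP1 knockout libraries (orange) lie between or overlap, for example Hspa5 at 591 to 1260.1 CPM in proximal colon.

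Sdf2l1 and Hyou1 were called higher in both segments of the FIP2 knockout, and Creld2 in proximal colon. Sdf2l1, a partner of BiP, was at 25.8, 19.0 and 17.7 CPM in wild-type distal colon and at 34.6, 51.1 and 43.6 in the FIP2 knockout (1.05 ± 0.24, adjusted p = 0.00554). Its proximal change was 1.14 ± 0.24 (adjusted p = 0.00427). Hyou1 (GRP170), which exchanges the nucleotide of BiP, was at 96.1, 81.1 and 61.9 CPM in wild-type distal libraries and at 156, 133 and 148 in the FIP2 knockout. Its changes were 0.87 ± 0.23 (adjusted p = 0.015) in distal and 1.24 ± 0.24 (adjusted p = 0.00187) in proximal colon. The distal Hyou1 call was lost without the third wild-type library (adjusted p = 0.0834) or the first FIP2 knockout library (adjusted p = 0.0522). Creld2, a stress-induced factor of the disulfide system, was at 32.7, 28 and 24.2 CPM in wild-type proximal colon and at 66.6, 60.4 and 70.7 in the FIP2 knockout (1.22 ± 0.23, adjusted p = 0.00161). In distal colon Creld2 did not overlap between the groups and was not called (0.59 ± 0.22, adjusted p = 0.0733). That distal Creld2 change was called with no filter (adjusted p = 0.0158), the compared libraries alone (0.0328) and the replicate block (0.0235).

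Of the disulfide isomerases, Pdia3 and Pdia4 were called in both segments. Pdia3 was higher by 0.72 ± 0.21 (adjusted p = 0.0222) in distal and 0.77 ± 0.21 (adjusted p = 0.0183) in proximal colon of the FIP2 knockout, and Pdia4 by 0.62 ± 0.20 (adjusted p = 0.0339) and 0.82 ± 0.20 (adjusted p = 0.00968). Pdia6 was called in proximal colon (0.89 ± 0.24, adjusted p = 0.018) and was at 0.65 ± 0.24 (adjusted p = 0.0635) in distal colon. That distal Pdia6 change was called in DESeq2 (adjusted p = 0.0344), with library totals (0.0475), no filter (0.00882) and the compared libraries alone (0.0318). P4hb was called in neither segment in edgeR (0.35 ± 0.16 and 0.27 ± 0.16), but in distal colon in DESeq2 (adjusted p = 0.0365). Several of these calls were lost when 1 library was left out: Pdia3 in distal colon without the third wild-type or any 1 knockout library (adjusted p up to 0.0842) and in proximal colon without the first or the third wild-type or the first knockout library (up to 0.0963), Pdia4 in distal colon without any library but the second wild-type one (up to 0.162), and Pdia6 without the first or the third wild-type or the second knockout library (up to 0.0942). The DnaJ co-chaperones split. Dnajc3 (0.67 ± 0.18 and 0.73 ± 0.18) and Dnajb11 (0.46 ± 0.14 and 0.48 ± 0.14) were called higher in both segments. Dnajc3 lost its calls without the third wild-type library of the segment (adjusted p = 0.0729 and 0.0616). Dnajb11 lost its distal call without any 1 library (adjusted p up to 0.131) and its proximal one without the first or the third wild-type or the second or the third knockout library (up to 0.103). With the compared libraries alone, the proximal calls of Pdia3 (adjusted p = 0.0669), Dnajc3 (adjusted p = 0.0515) and Dnajb11 (adjusted p = 0.0915) and the distal call of Dnajb11 (adjusted p = 0.0572) were lost. Dnajb11 also lost both with no filter on low counts (adjusted p = 0.09 and 0.0741). Dnajb9, which helps BiP to silence IRE1, was called in neither (0.30 ± 0.18 and -0.04 ± 0.18).

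The firmest of these calls did not depend on a single library. In distal colon the FIP2 knockout calls of Hspa5, Hsp90b1, Manf, Calr, Canx, Sdf2l1, Ddit3 and Atf3 held in each of 15 alternative analyses, 6 of which left out 1 library. In proximal colon those of Hspa5, Hsp90b1, Manf, Creld2, Pdia4, Sdf2l1, Hyou1, Sec61a1 and Asns held in each of 15. Of the 15 folding genes, 6 were called in distal colon without the third wild-type library and 7 without the first FIP2 knockout library, and 7 in proximal colon without the third wild-type library. Without the second wild-type proximal library, which stood apart, 13 were called and the median was 1.09. These counts are given without the share of all tested genes called in the same refit. In all 15 alternatives at least 14 of the 15 folding genes had a positive change in the FIP2 knockout, and no called member reversed.

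The count over promoters ran side by side with these values. Of the 7 folding genes with the stress element, 5 were called higher in distal and 6 in proximal colon of the FIP2 knockout, with median changes of 0.93 and 0.89. Of the 6 folding genes whose promoter lacked it, 4 were called in each segment, with medians of 0.54 and 0.62. The 2 groups overlapped in distal (0.59 to 1.32 with the element and 0.30 to 1.05 without) and in proximal colon (0.44 to 1.31 and -0.04 to 1.14). In the FIP1 knockout 0 of the 7 with the element were called in either segment (medians 0.32 and 0.46). Of the 6 without it, 1 was higher in distal and 1 lower in proximal FIP1 knockout (medians 0.28 and 0.37). Manf and Hyou1, without a promoter in the table, were called in both segments of the FIP2 knockout and in proximal FIP1 knockout. Over all tested genes, 9.13% were called higher in distal and 7.6% in proximal FIP2 knockout. For the FIP1 knockout 8.84% were higher and 7.47% lower in distal colon, and 6.7% and 6.89% in proximal colon. The difference between the small sets of folding genes was not tested.

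In the FIP1 knockout 1 of the 15 folding genes was called higher in distal colon, and 2 were higher and 1 lower in proximal colon. In distal colon 15 of 15 folding genes had a positive change against wild type, with a median of 0.32. The called gene was P4hb (0.47 ± 0.16, adjusted p = 0.0449), and it lost its call without any 1 of the 6 libraries, with no filter (adjusted p = 0.135) and with the compared libraries alone (adjusted p = 0.0872). In alternatives Canx was called in DESeq2 (adjusted p = 0.0261), both limma fits and library totals, Hyou1 with no filter (adjusted p = 0.0171) and the compared libraries alone (adjusted p = 0.0477), and Calr with library totals (adjusted p = 0.0483). P4hb was at 455, 467 and 372 CPM in wild type and at 659, 578 and 559 in the FIP1 knockout. In proximal colon the median was 0.44; Manf (0.69 ± 0.21, adjusted p = 0.0381) and Hyou1 (0.74 ± 0.23, adjusted p = 0.0417) were higher, and Dnajb9 was lower (-0.56 ± 0.18, adjusted p = 0.0483). Manf and Hyou1 overlapped between the groups, and the second FIP1 knockout library lay lowest, at 80.3 CPM of Manf against 136 and 121 in the other 2. Each of these 3 calls was lost without 1 library: Manf without any but the second of either group (adjusted p up to 0.186), Hyou1 without the second or the third wild-type or the first or the third knockout library (up to 0.224), and Dnajb9 without any but the second knockout library (up to 0.211). With the compared libraries alone all 3 were lost (adjusted p from 0.13 to 0.146). Hyou1 was also lost in limma with either pseudocount (up to 0.0622), and Dnajb9 in limma, with RLE factors, library totals, no filter or without mitochondrially encoded genes (0.0529 to 0.13). Other proximal genes were called higher in alternatives: P4hb in DESeq2 (adjusted p = 0.0296) and Sdf2l1 with no filter (0.032). Creld2 was called higher with no filter (adjusted p = 0.0149) and with the replicate block (0.0428). The number of folding genes called in proximal FIP1 knockout ranged from 0 higher (without the third wild-type, the first knockout or the third knockout library) to 6 higher (without the second wild-type library), with 4 higher and 1 lower without the second knockout library. The shares of all tested genes called in these refits are not given here. Over all 34 members, 5 were higher and 2 lower in distal colon, against 8.84% and 7.47% of all tested genes, and 6 higher and 1 lower in proximal colon, against 6.7% and 6.89%. Hspa5 was not called in the FIP1 knockout (0.32 ± 0.24, adjusted p = 0.411, in distal and 0.46 ± 0.24, adjusted p = 0.233, in proximal colon).

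**Figure D3:**
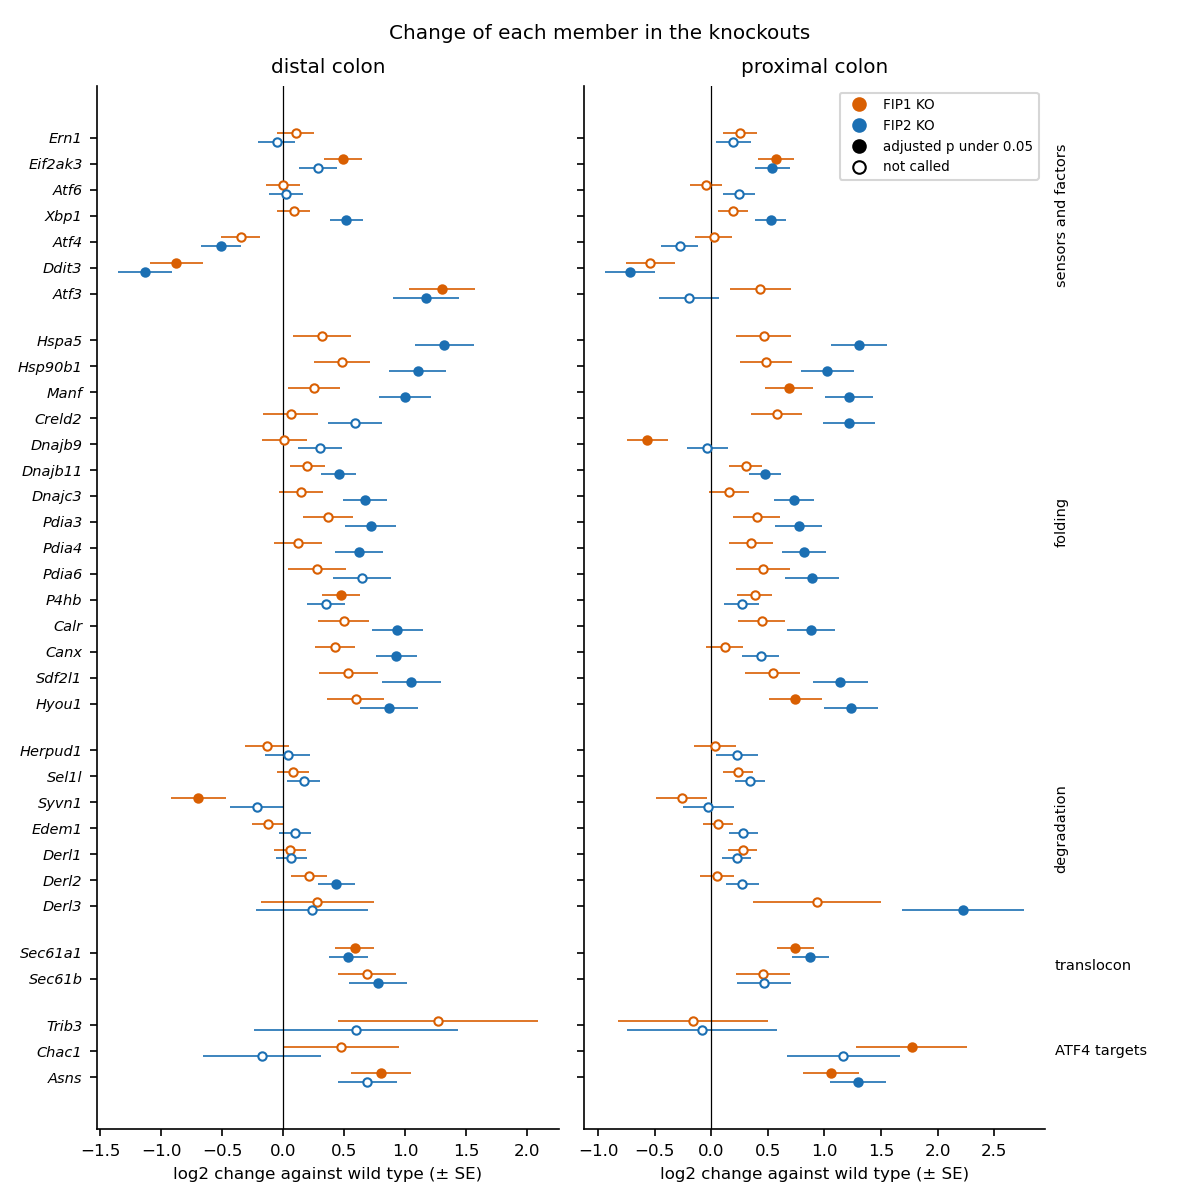
Each row is 1 of the 34 members, grouped by role, and the horizontal axis is the log2 change against wild type in distal (left) and proximal (right) colon, with bars of ± 1 SE; orange is the FIP1 knockout, blue the FIP2 knockout, and filled points have an adjusted p under 0.05. In the folding block 11 blue points are filled in distal and 12 in proximal colon, while Ddit3 lies left of 0 for both knockouts in both segments.

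The 2 knockouts share the wild-type libraries, so their changes are set side by side and compared directly only with each other. In the direct comparison, FIP1 minus FIP2, 14 of 15 folding genes were negative in each segment, with medians of -0.50 and -0.50. In distal colon 0 members were higher and 1 was lower (1.22% and 0.644% of all tested genes), namely Hspa5, which was at 1000.4, 925 and 873 CPM in the FIP1 knockout and at 2079, 1765 and 1762 in the FIP2 knockout (-1.0 ± 0.24, adjusted p = 0.0396). That single call was lost when any 1 of the 6 libraries was left out (adjusted p from 0.0689 to 0.128), with library totals (adjusted p = 0.0572) and in limma with either pseudocount (up to 0.0861). Manf was called lower in DESeq2 (adjusted p = 0.0269), with no filter (0.00355) and with the compared libraries alone (0.0228). DESeq2 also called Xbp1 (adjusted p = 0.0138) and Canx (0.0313) lower. In proximal colon 0 members were called higher and 0 lower in edgeR (1.33% and 1.42% of all tested genes). There 12 members had an unadjusted p under 0.05, as did 3280 of all 17692 tested genes, and DESeq2 called 2. Hspa5 was at -0.84 ± 0.24 (adjusted p = 0.065) in that comparison. It was called lower in DESeq2 (adjusted p = 0.0115), with no filter (0.00747) and without the first FIP1 knockout library (0.0359). Creld2 was called lower with no filter (adjusted p = 0.0341), with the replicate block (0.0415) and without that library (0.045). DESeq2 also called Dnajc3 lower (adjusted p = 0.0369), and the fit with no filter called Atf3 higher (0.0217). The libraries of the 2 knockouts did not overlap for 15 members in distal and 15 in proximal colon, where 22.7% and 27.1% of all tested genes did not.

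Of the 7 sensors and transcription factors, 2 were higher and 1 lower in distal FIP1 knockout (8.84% and 7.47% of all tested genes), and 1 higher and 0 lower in proximal FIP1 knockout (6.7% and 6.89%). In the FIP2 knockout 2 were higher and 2 lower in distal (9.13% and 9.38%) and 2 higher and 1 lower in proximal colon (7.6% and 7.07%). Atf4, Ddit3 and Atf3 are among these 7 and also belong to the ATF4 set described below. Their calls are therefore counted in both sets. Xbp1, whose spliced product drives folding genes, was at 189.8, 178 and 152 CPM in wild-type distal colon and at 276, 249 and 220.1 in the FIP2 knockout. In proximal colon it was at 167, 156 and 142 CPM against 233, 217 and 219. It was higher without overlap by 0.52 ± 0.13 in both segments (adjusted p = 0.0114 and 0.0133). The distal call was lost without the third wild-type (adjusted p = 0.0657) or the first FIP2 knockout library (adjusted p = 0.0685), and the proximal one without the third wild-type library (adjusted p = 0.0616). Both Xbp1 calls were lost with the compared libraries alone (adjusted p = 0.0564 and 0.0718). In the FIP1 knockout Xbp1 was at 0.08 ± 0.13 and 0.19 ± 0.13, and was not called. Gene counts do not show the spliced share of Xbp1. Eif2ak3 was higher in the FIP1 knockout in distal (0.49 ± 0.16, adjusted p = 0.0371) and proximal colon (0.57 ± 0.16, adjusted p = 0.0191), and in the FIP2 knockout in proximal colon (0.54 ± 0.16, adjusted p = 0.0257). The first was lost without any library but the first wild-type one (adjusted p up to 0.148), the second without the second wild-type or the first or the third knockout library (up to 0.0896), and the third without the first or second wild-type or the first or the third knockout library (up to 0.105). The first Eif2ak3 call was also lost with no filter (adjusted p = 0.0893), and the other two with the compared libraries alone (adjusted p = 0.0671 and 0.0856). Ern1 and Atf6 were called in no comparison of a knockout with wild type (changes from -0.05 to 0.25 for Ern1 and from -0.05 to 0.24 for Atf6).

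The ATF4 set held calls in both directions. Ddit3 (CHOP), a transcription factor of prolonged stress, was at 23.1, 26.3 and 28.4 CPM in wild-type distal colon, at 18.1, 12.3 and 11.8 in the FIP1 knockout and at 12.2, 12.8 and 10.3 in the FIP2 knockout. Both knockouts lay below every wild-type library. The changes were -0.88 ± 0.22 (adjusted p = 0.00977) and -1.14 ± 0.22 (adjusted p = 0.00152). The first was lost without the third FIP1 knockout library (adjusted p = 0.0518). In proximal colon Ddit3 was at 26.0, 17.3 and 23.3 CPM in wild type, 17, 18.1 and 11 in the FIP1 knockout and 16.4, 11.8 and 12.4 in the FIP2 knockout. It was lower there in the FIP2 knockout (-0.72 ± 0.22, adjusted p = 0.0345), with a call that was lost without any of 4 libraries (the first or the third wild-type, the second or the third knockout; adjusted p up to 0.137), with library totals, in limma with either pseudocount and with the compared libraries alone (0.0883 to 0.126). Ddit3 was not called in the proximal FIP1 knockout (-0.54 ± 0.22, adjusted p = 0.117). A second, short gene model of Ddit3 in the table had no count and was not used.

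Atf4 itself was at 108, 120.2 and 122 CPM in wild-type distal colon and at 89.0, 88.7 and 67.2 in the FIP2 knockout (-0.51 ± 0.16, adjusted p = 0.0348). That call was lost without the second or the third wild-type or the second or the third knockout library (adjusted p up to 0.147), with library totals, with no filter and in limma with either pseudocount (0.0666 to 0.0919). ATF4 is controlled largely at translation, which RNA counts do not measure. Atf3, an immediate-early stress factor, was at 19.1, 13.4 and 23.0 CPM in wild-type distal colon, at 47.4, 51.3 and 38.2 in the FIP1 knockout and at 32.1, 51.2 and 41.6 in the FIP2 knockout. It was higher by 1.30 ± 0.27 (adjusted p = 0.00283) and 1.17 ± 0.27 (adjusted p = 0.00553), and both calls held in every alternative. In proximal colon, where wild-type Atf3 was itself higher (34.3, 30.1 and 37.9 CPM), neither knockout was called (0.44 ± 0.27 and -0.20 ± 0.27).

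Asns, asparagine synthetase, was called higher in 3 of the 4 comparisons with wild type, and in several alternatives in the other. It was at 19.5, 28.1 and 12 CPM in wild-type proximal colon, at 38.2, 39.2 and 45.6 in the FIP1 knockout and at 57.6, 43.4 and 44.4 in the FIP2 knockout. Both knockouts lay above every wild-type library. The changes were 1.06 ± 0.25 (adjusted p = 0.00726) and 1.30 ± 0.25 (adjusted p = 0.00181). In distal colon Asns was higher in the FIP1 knockout (0.80 ± 0.25, adjusted p = 0.0307), a call lost without any of 4 libraries (the first or the third wild-type, the second or the third knockout; adjusted p up to 0.145), and was at 0.69 ± 0.24 (adjusted p = 0.0551) in the FIP2 knockout. That distal FIP2 knockout change of Asns was called in DESeq2 (adjusted p = 0.0349) and in limma with either pseudocount (up to 0.0481). It was also called with library totals (0.0385), no filter (0.00638), the compared libraries alone (0.0416) and the replicate block (0.0406). Without the third knockout library its adjusted p was 0.0491. Chac1, which degrades glutathione, had 5 to 51 counts per library. It was at 0.404, 0.989 and 0.450 CPM in wild-type proximal colon and at 1.40, 2.51 and 2.22 in the FIP1 knockout (1.77 ± 0.49, adjusted p = 0.0219), with a call lost without any of 4 libraries (the first or the third wild-type, the second or the third knockout; adjusted p up to 0.0895) and with the compared libraries alone (adjusted p = 0.0739). In proximal FIP2 knockout Chac1 was not called (1.17), but was called without the second wild-type library (1.64, adjusted p = 0.0447). Trib3 was called in no comparison with wild type. Of the 6 genes of the set, 2 were higher and 1 lower in distal FIP1 knockout (8.84% and 7.47% of all tested genes) and 2 higher and 0 lower in proximal FIP1 knockout (6.7% and 6.89%). In the FIP2 knockout 1 was higher and 2 lower in distal (9.13% and 9.38%) and 1 higher and 1 lower in proximal colon (7.6% and 7.07%).

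**Figure D4:**
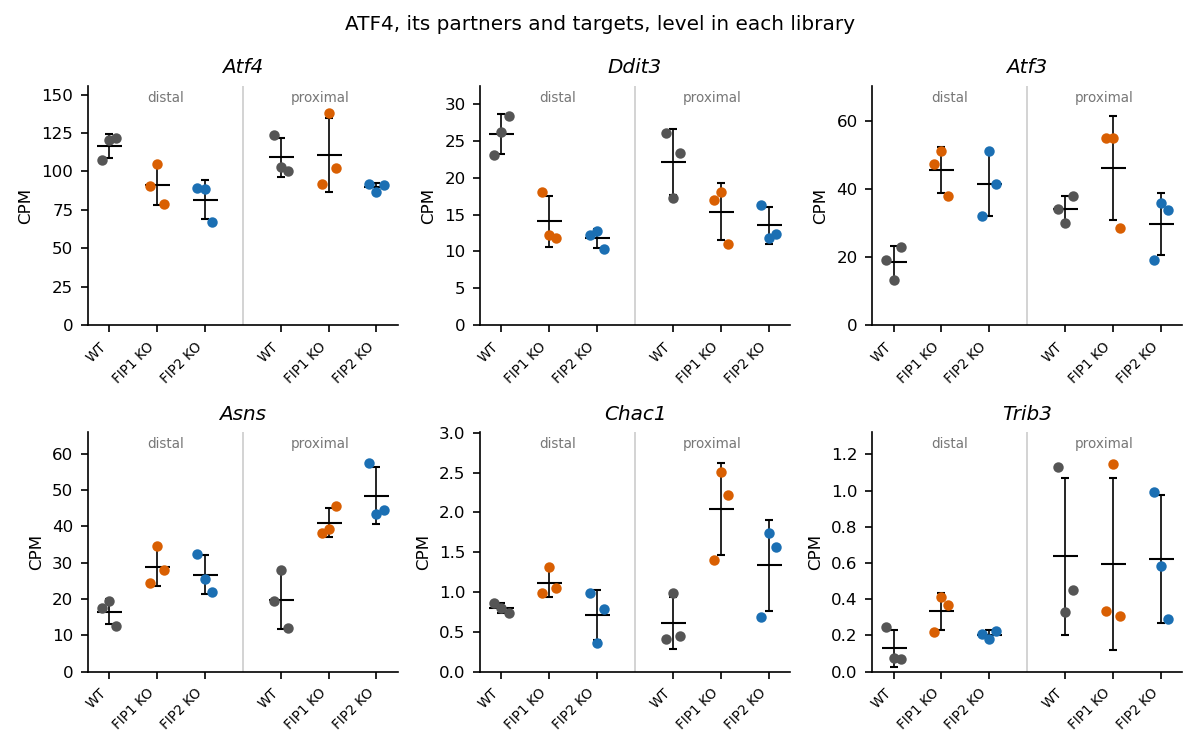
Each panel shows 1 gene of the ATF4 set, with scaled counts (CPM) on the vertical axis and the 6 groups on the horizontal axis; points are libraries and bars the mean ± SD of 3. Ddit3 is below all wild-type libraries in the distal knockouts (10.3 to 18.1 against 23.1 to 28.4 CPM), Asns is above them in the proximal knockouts, and Trib3 stays near or under 1 CPM.

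Of the 7 degradation genes, 1 was called higher and 0 lower in the FIP2 knockout in each segment. The shares of all tested genes there were 9.13% higher and 9.38% lower in distal and 7.6% and 7.07% in proximal colon. In the FIP1 knockout 0 were higher and 1 lower in distal (8.84% and 7.47%), and 0 and 0 in proximal colon (6.7% and 6.89%). The FIP2 knockout calls were Derl2 in distal colon (0.44 ± 0.15, adjusted p = 0.0465, lost without any 1 of the 6 libraries, with no filter and with the compared libraries alone) and Derl3 in proximal colon. The proximal Derl2 change (0.28) was called in limma with a pseudocount of 1 (adjusted p = 0.0498) and without the second wild-type library (0.0474). Derl3, a derlin of the retrotranslocation machinery, was at 0.242, 0.220 and 0.525 CPM (2 to 7 counts) in wild-type proximal colon and at 0.535, 1.88 and 2.38 (7 to 41 counts) in the FIP2 knockout (2.23 ± 0.54, adjusted p = 0.00966). The lowest knockout library lay just above the highest wild-type one, and without the third knockout library the adjusted p was 0.0517. With the compared libraries alone it was 0.0687 for Derl3. Syvn1, the ubiquitin ligase HRD1, was at 69.3, 63.5 and 68.0 CPM in wild-type distal colon and at 59.5, 31.2 and 32.9 in the FIP1 knockout (-0.70 ± 0.22, adjusted p = 0.0386). This call was lost without the first, second or the third wild-type library or the second or the third knockout library (adjusted p up to 0.156), and for Syvn1 also with library totals (adjusted p = 0.183), in limma with either pseudocount (0.146 in each) and with the compared libraries alone (0.0533). Herpud1, Sel1l, Edem1 and Derl1, which scaffold or feed that ligase, were called in no comparison with wild type. The medians of the 7 were 0.10 and 0.28 in the FIP2 knockout and 0.06 in both segments of the FIP1 knockout.

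The translocon pore subunit Sec61a1 was higher in all 4 comparisons of a knockout with wild type. In proximal colon it was at 117, 108 and 109 CPM in wild type, 227, 136 and 197 in the FIP1 knockout and 198, 195 and 222 in the FIP2 knockout. Each knockout library lay above each wild-type one. The proximal changes were 0.74 ± 0.16 (adjusted p = 0.00425) and 0.88 ± 0.16 (adjusted p = 0.0014). The proximal FIP1 knockout call of Sec61a1 was lost with the compared libraries alone (adjusted p = 0.0521). The distal changes were 0.58 ± 0.16 (adjusted p = 0.0169) and 0.53 ± 0.16 (adjusted p = 0.0258), and were lost without the third wild-type or the first or second FIP1 knockout library (adjusted p up to 0.0743), and without the second or the third wild-type or the first or the third FIP2 knockout library (adjusted p up to 0.109). Sec61b, a small subunit of the same channel, was called in the distal FIP2 knockout (0.78 ± 0.24, adjusted p = 0.0296), a call lost without any 1 of the 6 libraries. In distal FIP1 knockout Sec61b was at 0.69 ± 0.24 (adjusted p = 0.055) without overlap, and was called in 7 alternatives (adjusted p from 0.00342 to 0.049). Its proximal changes of 0.46 and 0.47 were not called, but were 0.89 and 0.90 and called without the second wild-type proximal library (adjusted p = 0.00565 and 0.00437).

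Counting members whose 3 libraries lay wholly apart from those of wild type gave 17 in distal and 10 in proximal FIP1 knockout, where 35.8% and 26.6% of all tested genes did so. In the FIP2 knockout the counts were 22 and 24 of 34, against 37.6% and 29.3% of all tested genes. Of the 15 folding genes, 14 did so in each segment of the FIP2 knockout, and 7 and 3 in the FIP1 knockout.

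Markers of other secretory cells were set beside the folding genes. For the marker counts below, 8.84% of all tested genes were higher and 7.47% lower in distal FIP1 knockout, and 6.7% and 6.89% in proximal. The shares in the FIP2 knockout were 9.13% and 9.38% in distal and 7.6% and 7.07% in proximal colon. The summed level of the 15 folding genes was 3488 to 4477 CPM in wild-type distal colon, 5028 to 5623 in the FIP1 knockout and 7388 to 7818 in the FIP2 knockout, without overlap. In proximal colon it was 3624 to 5405, 4244 to 6986 and 7338 to 8059 CPM. Of 13 tested B and plasma cell markers, 1 was higher in distal FIP2 knockout, with a sum of 58.1 to 83.9 CPM that overlapped wild type (10.9 to 68.7), and Tnfrsf17 had 1 count over the 3 libraries in each of these groups. In proximal FIP2 knockout 10 of the 13 were higher, at 381 to 668 against 12.8 to 27.7 CPM, and Tnfrsf17, Pou2af1 and Fcrl5 had no count in wild type. In distal FIP1 knockout 11 were higher, at 475 to 723 CPM, beside 1 called folding gene. The sum in proximal FIP1 knockout ran from 44.1 to 497 CPM, and 4 of 13 were higher. The 14 goblet cell markers summed to 20097 to 23186 CPM in wild-type distal colon and to 12279 to 16047 in the FIP2 knockout, with 0 higher and 3 lower. The distal FIP1 knockout sum, 14791 to 18630 CPM, also lay below wild type, with 0 higher and 1 lower. In proximal colon the goblet sums of wild type and the FIP2 knockout overlapped (14409 to 25773 and 13967 to 16419 CPM), with 1 higher and 0 lower. The proximal FIP1 knockout sum also overlapped wild type (14136 to 19597 CPM), with 0 higher and 1 lower. The 14 T and innate lymphoid markers had 8 higher in distal and 10 higher in proximal FIP2 knockout, and 8 and 7 higher in the FIP1 knockout. The 6 deep crypt secretory markers summed to 876 to 1696 CPM in wild-type distal colon, 348 to 663 in the FIP1 knockout and 401 to 638 in the FIP2 knockout, without overlap with wild type and with 2 of 6 lower in each. In proximal colon their sums overlapped (592 to 1080, 426 to 1368 and 720 to 994 CPM), with 0 called in the FIP1 and 1 higher and 1 lower in the FIP2 knockout. Of 10 epithelial markers, 3 were higher in distal FIP2 knockout, with a sum of 18399 to 19580 CPM above that of wild type (11997 to 14910). In distal FIP1 knockout 1 was higher, at 15578 to 18031 CPM. In proximal colon 0 were called in either knockout, with 17614 to 18753 CPM in the FIP1 and 15037 to 17798 in the FIP2 knockout against 14403 to 16896. The part of these cell types in the folding gene changes was not tested.

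**Figure D5:**
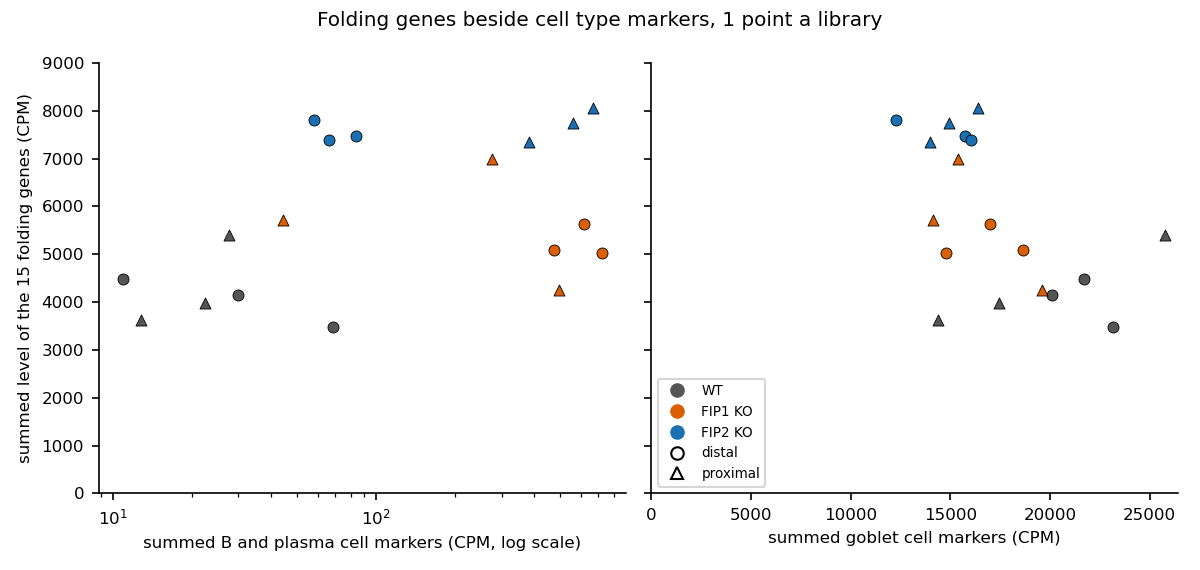
Each point is 1 library, with the summed CPM of the 15 folding genes on the vertical axis and the summed CPM of B and plasma cell markers (left, log scale) or goblet cell markers (right) on the horizontal axis; colours give genotype, circles distal and triangles proximal colon. The 6 FIP2 knockout libraries lie at 7338 to 8059 CPM of folding genes at low (distal) and high (proximal) levels of B and plasma cell markers.

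In wild type, proximal against distal, 4 members were higher and 2 lower, where 8.96% and 7.39% of all tested genes were. Canx, Dnajb9 (0.67 ± 0.18, adjusted p = 0.0171), Atf3 (0.88 ± 0.27, adjusted p = 0.0305) and P4hb (0.49 ± 0.16, adjusted p = 0.0383) were higher. Derl3 (-1.79 ± 0.55, adjusted p = 0.0294) and Herpud1 (-0.58 ± 0.18, adjusted p = 0.0356) were lower. Of these 6 calls that of Canx held whichever library was left out. Dnajb9 lost its call without the second distal or second proximal library, Atf3 without the first or second distal or the first or the third proximal one, P4hb without any one, Derl3 without the first or the third distal or the first or second proximal one, and Herpud1 without the first or the third distal or the second proximal one (adjusted p up to 0.15). With the compared libraries alone the calls other than that of Atf3 were lost (adjusted p from 0.0623 to 0.21). Atf3 was lost in limma with either pseudocount (up to 0.0557), P4hb also in limma, with library totals or no filter (up to 0.202), and Derl3 with no filter (0.053). In the FIP1 knockout 0 members were higher and 0 lower in edgeR (2.94% and 3.65% of all tested genes). There 5 members had an unadjusted p under 0.05, as did 2892 of all 17692 tested genes, and DESeq2 called 1. In the FIP2 knockout 1 was higher and 0 lower (4.99% and 4.49%), namely Asns (0.86 ± 0.24, adjusted p = 0.0267), which lost its call without the second or the third distal or the first or the third proximal library (adjusted p up to 0.131) and in limma with a pseudocount of 0.1 (adjusted p = 0.0513). With the replicate block, which pairs the segments within each genotype, Asns was called in the FIP1 knockout (0.52, adjusted p = 0.042). In the FIP2 knockout the block also called Atf3 lower (-0.51, adjusted p = 0.0402). In wild type it called Creld2 (-0.56, adjusted p = 0.00868) and Ern1 (-0.43, adjusted p = 0.0441) lower in proximal colon, though same-numbered wild-type libraries did not correlate in every pair.

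The difference of each knockout effect between segments was tested as an interaction. For FIP1, 0 members were called higher and 0 lower in edgeR (0.136% and 0.509% of all tested genes). At an unadjusted p under 0.05 there were 2 members, beside 1641 of all 17692 tested genes, and DESeq2 called 0. For FIP2 there were 0 and 0 (0.0735% and 0.254%), with 3 unadjusted (1778 of all 17692 tested genes) and 1 in DESeq2. The call in DESeq2 was Atf3, whose FIP2 effect was lower in proximal than in distal colon (log2 difference -1.38, adjusted p = 0.0392; -1.37 in edgeR). Atf3 was also called with no filter on low counts (-1.37, adjusted p = 0.000183). With the replicate block Atf3 was called for both the FIP1 (-0.93, adjusted p = 0.0474) and the FIP2 effect (-1.41, adjusted p = 0.00409).

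Other genes of the pathway, from lists that exclude the 34, were counted in the same way. In the FIP2 knockout 9.13% of all tested genes were higher and 9.38% lower in distal colon, and 7.6% and 7.07% in proximal colon. In that knockout 10 of 30 genes of translocation, signal cleavage and glycan transfer were higher in distal and 9 of 30 in proximal colon, with 0 lower in both. Serp1, which stabilises the translocon, was higher by 0.83 ± 0.18 (adjusted p = 0.00319) and 1.12 ± 0.18 (adjusted p = 0.000404), and Rpn1, a subunit of the oligosaccharyltransferase, by 0.84 ± 0.19 (adjusted p = 0.00471) and 0.86 ± 0.19 (adjusted p = 0.00535). Among 25 further folding genes, 4 were higher and 1 lower in distal and 6 higher and 0 lower in proximal FIP2 knockout. Ero1l, the oxidase that recharges disulfide isomerases, was higher in distal colon (0.98 ± 0.18, adjusted p = 0.000791), and Dnajc10, a reductase of misfolded chains, in both (1.04 ± 0.28, adjusted p = 0.0155, and 1.28 ± 0.29, adjusted p = 0.00557). Uggt1, which senses glycoprotein folding, was higher in proximal colon (0.73 ± 0.16, adjusted p = 0.00416). Agr2, a disulfide isomerase of goblet cells, was called in neither segment. Of 21 further degradation genes, 2 were higher in distal and 0 in proximal colon, with 0 lower.

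Among 41 further ATF4 targets, 7 were higher and 4 lower in distal and 8 higher and 1 lower in proximal FIP2 knockout, against 9.13% and 9.38%, and 7.6% and 7.07%, of all tested genes. In the FIP1 knockout 8 were higher and 1 lower in distal (8.84% and 7.47% of all genes) and 10 higher and 1 lower in proximal colon (6.7% and 6.89%). Phgdh, the first enzyme of serine synthesis, was higher in all 4 comparisons with wild type. Its changes were 1.46 ± 0.27 and 1.69 ± 0.27 in distal and proximal FIP1 knockout and 1.99 ± 0.27 and 2.10 ± 0.27 in the FIP2 knockout, with adjusted p from 5.68e-05 to 0.00113. Wars, a tRNA synthetase that interferon also induces, was higher by 0.95 ± 0.16 to 1.20 ± 0.16. Gdf15, a secreted stress cytokine, went in different directions: it was lower in distal FIP2 knockout (-2.81 ± 0.40, adjusted p = 9.56e-05) and higher in proximal FIP1 knockout (1.91 ± 0.44, adjusted p = 0.00709). Compared directly, Gdf15 was higher in the FIP1 than in the FIP2 knockout in both segments (2.25 ± 0.40, adjusted p = 0.00476, and 2.35 ± 0.44, adjusted p = 0.00662). Sesn2 was lower in proximal FIP2 knockout (-1.38 ± 0.27, adjusted p = 0.00241). Ppp1r15a, the phosphatase subunit that reverses PERK signalling, was called in no comparison of a knockout with wild type.

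Of 15 further sensors and factors, 2 were higher and 1 lower in distal (8.84% and 7.47% of all tested genes) and 1 higher and 0 lower in proximal FIP1 knockout (6.7% and 6.89%). In the FIP2 knockout 3 were higher and 3 lower in distal (9.13% and 9.38%) and 0 higher and 2 lower in proximal colon (7.6% and 7.07%). Eif2ak2 (PKR), an interferon-induced kinase of the same substrate as PERK, was higher in distal FIP1 (0.92 ± 0.18, adjusted p = 0.00152), proximal FIP1 (0.83 ± 0.18, adjusted p = 0.00411) and distal FIP2 knockout (0.96 ± 0.18, adjusted p = 0.00101). Ern2, the IRE1 form of mucous epithelium, was called in no knockout, and was lower in proximal than in distal wild-type colon (-0.68 ± 0.21, adjusted p = 0.0322). Creb3l3, a membrane-bound factor of the ATF6 type, was lower in proximal FIP2 knockout (-2.47 ± 0.50, adjusted p = 0.00281).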

How the data were processed

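Colonic epithelium of 6 groups was profiled by poly(A) RNA sequencing (reads of 150 nt, per the labels), with 3 libraries a group. The authors deposited raw read counts per gene and FPKM values. STAR 2.5, TopHat, HTSeq 0.6.1 and DESeq2 with builds GRCm38 and mm10 are named, without roles, in the submitters' processing notes, and strand is not given in the sources used here, so reads of overlapping antisense genes cannot be told apart.

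Counts were tested in edgeR 4.0.16 (R 4.3.3) with TMM normalization, the default filter on low counts and the quasi-likelihood test in 1 model of all 6 groups, with Benjamini-Hochberg adjustment over 17692 genes at 0.05. The SE of a log2 change was derived as the size of the change divided by the square root of its quasi-likelihood F statistic. Totals ran from 11193308 to 22062300 counts. DESeq2 1.42.0, limma 3.58.1 on log2(FPKM + 1) or log2(FPKM + 0.1), RLE factors, library totals, no filter, the compared libraries alone, a replicate block and each library left out were the alternatives. A fit without mitochondrially encoded genes was added after seeing the data. The members and lists were chosen with earlier results of these data known. All members are accounted for. From each further list up to 4 genes by adjusted p are named, and Ern2, Agr2, Ppp1r15a and Eif2ak2 whatever their p. Replicate numbers come from the titles. Deviations of same-numbered distal and proximal libraries correlated in the FIP1 (0.22, 0.213 and 0.121) and FIP2 knockout (0.465, 0.308 and 0.33), but not in all wild-type pairs (-0.104, 0.164 and 0.303). The code was tested on simulated data. Motifs were searched with Python 3.11.15 in RefSeq promoters, and figures drawn with matplotlib 3.10.9.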

Additional observations from a re-analysis of the deposited data

How the results depend on the processing

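Of 58 calls of a member in a comparison, 19 held in every alternative, 39 were lost in at least 1 and 0 reversed. With 1 library left out, the number of members called ran from 2 to 4 in distal FIP1 knockout against wild type (7 with all libraries), 2 to 10 in proximal FIP1 knockout (7), 8 to 14 in distal FIP2 knockout (18), 11 to 21 in proximal FIP2 knockout (18), 0 to 0 for FIP1 against FIP2 in distal (1) and 0 to 2 in proximal colon (0), 3 to 5 for segments of wild type (6) and 0 to 1 for those of the FIP2 knockout (1). Fitting the compared libraries alone called 1 member in proximal FIP1 knockout, 11 in proximal FIP2 knockout, 2 for FIP1 against FIP2 in distal colon and 1 between wild-type segments. For FIP1 against FIP2, distal colon had 0 calls with library totals, 2 with no filter, 4 in DESeq2 and 0 in limma with either pseudocount, and proximal colon 3 with no filter and 2 in DESeq2. Between segments DESeq2 called 1 member in the FIP1 and 2 in the FIP2 knockout, where limma with 0.1 called 0. For the FIP2 effect between segments, no filter and DESeq2 each called 1. The causes were not tested, and the share of all tested genes called in each alternative is not given here. Library totals shifted the median of all genes by up to 0.143 on the log2 scale.

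With the replicate block, 1 member was called for FIP1 against FIP2 in proximal colon (Creld2, -0.69, adjusted p = 0.0415), 1 between segments of the FIP1 and 2 of the FIP2 knockout, and 1 for each knockout effect between segments (Atf3, -0.93, adjusted p = 0.0474, and -1.41, adjusted p = 0.00409). Same-numbered libraries of different genotypes did not deviate together in every pair (lowest correlation -0.311), so there the block is no pairing. Trib3 (1 to 16 counts), Chac1 (5 to 51) and Derl3 (2 to 41) had few counts per library, so their values are imprecise.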
